A study of Saccharomyces cerevisiae with 159 samples.

Results

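The cdc15-2 arrest experiment set budding yeast (Saccharomyces cerevisiae, W303) held in anaphase by a temperature-sensitive allele of the kinase gene CDC15 against wild type (WT) cells that went on dividing. Its 10 RNA-seq libraries, of 159 in the series, were taken by strain, experiment and time from the labels: 1 cdc15-2 and 1 WT library at each of 2, 4, 6, 8 and 9 h. Strain A2596 carried cdc15-2, ade1 and a marker written omns, which the labels do not explain, and strain A2587 (WT) carried ade2-1, can1-100, his3-11,15, GAL and psi+. Both were MATa with leu2-3, ura3 and trp1-1. Both grew in YEPD, a rich glucose medium, at 25 °C and were then moved to 37 °C, so that both strains met the same heat. WT cultures were kept between OD600 values of 0.2 and 0.8. The cdc15-2 labels give no such range, so culture density and strain cannot be told apart.

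The mitotic exit network is a signalling cascade at the spindle pole body that runs from the GTPase Tem1 through the kinase Cdc15 to the kinase Dbf2 with its partner Mob1. It releases the phosphatase Cdc14 from the nucleolus, and Cdc14 then reverses phosphorylation by the mitotic cyclin-dependent kinase, lets transcription factors such as Swi5 act in the nucleus and allows cytokinesis. Cells that lack Cdc15 function stop late in anaphase with separated chromosomes, a long spindle and active Clb2 kinase. Yeast that stop dividing can also enter the environmental stress response, in which genes for ribosome production fall and genes for trehalose, small heat-shock proteins and respiration rise. Those for trehalose and small heat-shock proteins rise through Msn2, Msn4 and lower protein kinase A activity.

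The values were TPM, a length-corrected transcript abundance scaled to a fixed total per library, which keep no read depth, so the depth of each library is unknown. They were rescaled to a common total over nuclear protein-coding open reading frames, and differences are given as cdc15-2 minus WT in log2(TPM + 1). The 5 matched times stood in for replicates, and p-values measure the spread between times, which may come from 1 culture of each strain. With 5 pairs an exact sign-flip test of a single gene could not go below 0.0625, so calls came from limma fits over 6360 genes. Correlations between the 10 libraries were 0.863 to 0.986. The 7 open reading frames that lie within the ribosomal DNA took 0.309, 0.505, 3.35, 11.0 and 21% of the rescaled total in cdc15-2 at 2, 4, 6, 8 and 9 h, against 0.338 to 0.610% in WT, and therefore lowered the relative level of every other gene in the late cdc15-2 libraries. The summed level of 6 genes specific to MATa cells had a median of 1488 TPM in cdc15-2 and 1190 TPM in WT, and that of 4 genes specific to MATalpha cells had a median of 86 TPM in cdc15-2 and 39.8 TPM in WT, as the MATa label of both strains gives.

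The comparison separated differences that were present at 2 h from those that drifted with time. Averaged over the 5 times, 2915 of 6360 genes (45.8%) differed. In cdc15-2 1957 (30.8%) were higher and 958 (15.1%) were lower, and the median difference of all genes was 0.16. With each library centred on its median, which moved that median to -0.04, the split was 1306 higher and 1738 lower. A line fitted through the 5 differences of each gene gave its value at 2 h and its slope per hour. At 2 h, 327 genes (5.14%) differed, 247 (3.88%) higher and 80 (1.26%) lower, with a median of 0.08, and centring gave 264 higher and 165 lower. The slope passed the test for 3097 genes (48.7%), of which 1669 (26.2%) rose with time and 1428 (22.5%) fell. Rescaling without the ribosomal DNA open reading frames, an alternative chosen after seeing the data, gave 2525 rising and 966 falling. By these 2 terms, 2912 genes (45.8%) drifted without a call at 2 h, 142 (2.23%) differed at 2 h without a called slope, 109 (1.71%) differed at 2 h with a slope of the same sign, 76 (1.19%) differed at 2 h with a slope of the opposite sign, and 3121 (49.1%) passed neither test. The 41 genes that were lower at 2 h with a rising slope had a median difference of -1.48 in the 2 h pair and -0.02 in the 9 h pair.

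In single pairs of libraries, genes more than 1 log2 unit higher in cdc15-2 made up 2.22, 9.17, 19.0, 22.2 and 22.7% of all genes at 2, 4, 6, 8 and 9 h, and those more than 1 lower made up 2.11, 1.93, 3.40, 8.66 and 11.8%. Between the WT library of this experiment and the WT library of the cdc20-1 arrest at 2 h, 92 genes (1.45%) were more than 1 higher and 80 (1.26%) more than 1 lower. Most of the drift lay in the arrested culture. Of the 1530 genes that rose without a call at 2 h, 1439 had the larger absolute slope in cdc15-2, where the median slope was 0.15 per hour, against -0.03 in WT. Of the 1382 that fell in this way, 1346 had the larger absolute slope in cdc15-2, with median slopes of -0.14 per hour in cdc15-2 and 0.0046 in WT.

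The number of calls at 2 h rested on few libraries. The count was 15 without the 4 h pair, 73 without 6 h, 51 without 8 h, 129 without 9 h, and 539 without 2 h itself, where the fit was extrapolated. The count over the 5 times was 736 without 6 h, 949 without 8 h and 1159 without 9 h. The count of slopes was between 2071 and 2895 whichever time was left out. Their split moved, since 766 rose and 1329 fell without the 2 h pair, against 1669 and 1428 with all times. In all, 12 genes passed at 2 h in each of 15 fits, the one reported and its alternatives, that kept the 2 h libraries. The 9 that were lower were DSE2, DSE1, SCW11, DSE4, TOS6, CSI2, HTB2, AXL2 and SCW4, and the 3 that were higher were PIR1 and the unnamed YPR158C-D and YDL025W-A. For YDL025W-A the 2 h pair set 21 TPM in cdc15-2 against 0 in WT, where it reached 23.7 TPM at 9 h. Its difference at 2 h therefore rests on a WT value at the floor.

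**Figure D1:**
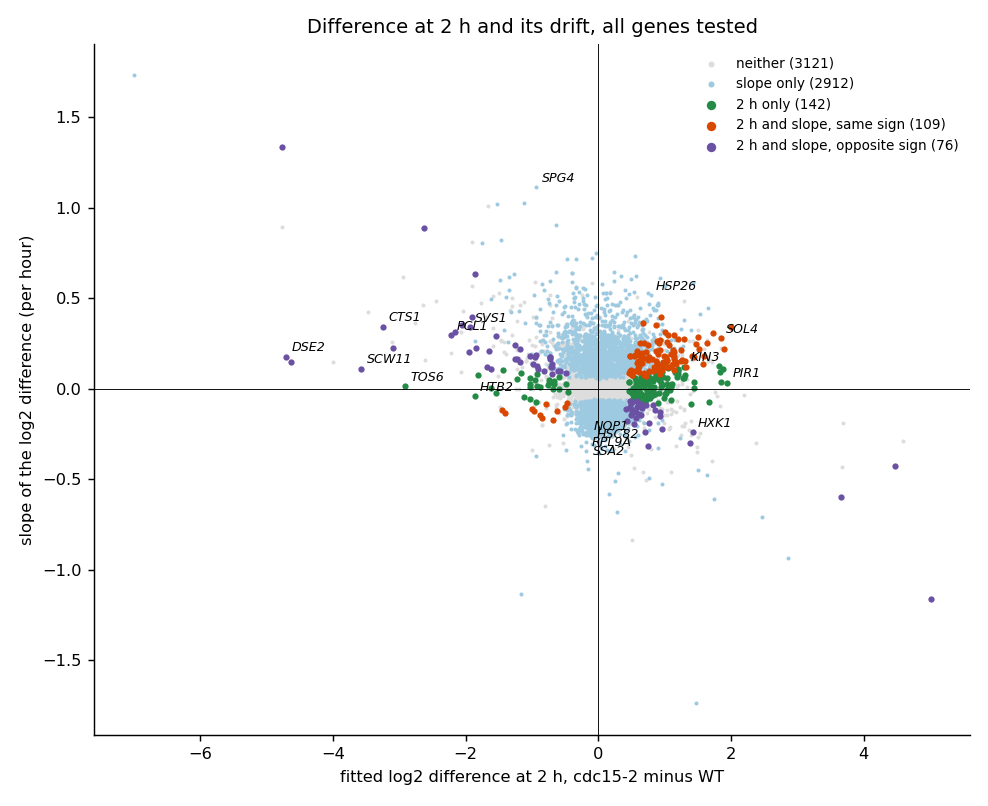
Fitted log2 difference between cdc15-2 and WT at 2 h (horizontal axis) and the slope of that difference per hour (vertical axis), 1 point per gene, for the 6360 genes tested, coloured by which terms passed the test. Genes called at 2 h lie away from the vertical zero line, with DSE2 at -4.71 and PIR1 at 1.95, while the 2912 genes called for slope alone spread along the vertical axis.

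The lowest fitted values at 2 h among named genes were in genes of daughter-cell separation, which are transcribed when the mitotic exit network is active. DSE1 (YER124C), a daughter-specific protein of the cell wall pathway, had 5.11, 7.65, 10.6, 12 and 15.5 TPM in cdc15-2 at 2, 4, 6, 8 and 9 h, against 159, 167, 175, 183 and 200 TPM in WT. DSE2 (YHR143W), a daughter-specific secreted protein, had 10.9, 14.7, 22.8, 26.9 and 30.0 TPM in cdc15-2, against 323, 330, 319, 356 and 361 TPM in WT. SCW11 (YGL028C), a cell wall glucanase, had 9.02, 12, 14.0, 18.2 and 18.8 TPM in cdc15-2, against 123, 123, 132, 150 and 133 TPM in WT. The groups did not overlap for any of these genes, and all cdc15-2 libraries were far below WT. At 2 h the fitted difference was -4.63 ± 0.11 (SE) for DSE1 (adjusted p = 5.1e-05), -4.71 ± 0.12 for DSE2 (5.5e-05) and -3.57 ± 0.10 for SCW11 (6.3e-05), and each recovered slowly, by 0.15, 0.18 and 0.11 per hour.

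CTS1 (YLR286C), the endochitinase that cuts the septum, recovered more. It had 44.9, 104, 208, 274 and 233 TPM in cdc15-2, against 557, 538, 546, 564 and 570 TPM in WT. Its difference was -3.61 in the 2 h pair and -1.29 in the 9 h pair, and its slope was 0.34 ± 0.06 per hour (adjusted p = 0.0056). DSE4, an endoglucanase of the septum, was 3.43 lower in the 2 h pair and 1.70 lower in the 9 h pair. PRY3, a cell wall protein, and AMN1, an inhibitor of the mitotic exit network made in daughters, were lower at 2 h by fitted differences of -1.68 and -1.22 and remained lower over the 5 times. TOS6, a cell wall protein that is not in the list, had 34.2, 22.1, 17.4, 26.4 and 26 TPM in cdc15-2, against 231, 173, 182, 181 and 167 TPM in WT, with no called slope.

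Other genes transcribed at mitotic exit went the opposite way. PIR1 (YKL164C), a structural cell wall protein, had 2505, 2679, 2811, 2740 and 2144 TPM in cdc15-2, against 731, 610, 579, 598 and 533 TPM in WT. Its difference was 1.95 ± 0.13 at 2 h (adjusted p = 0.00335) with no called slope. SIC1, the inhibitor of the mitotic kinase, had 175, 285, 334, 324 and 293 TPM in cdc15-2, against 92.4, 90.9, 101, 96.7 and 97.6 TPM in WT. NIS1, a bud neck protein, was 1.63 higher over the 5 times and called at 2 h. ASH1, the daughter-specific repressor of HO, and RME1, a repressor of meiosis, were within 0.11 of WT in the 2 h pair and passed for slope, at 0.18 and 0.24 per hour, but not at 2 h. EGT2, another early G1 gene, was lower over the 5 times by 0.47.

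Of the 18 genes listed as transcribed at mitotic exit, 3 were higher at 2 h (all genes: 3.88%) and 8 were lower (all genes: 1.26%). Over the 5 times 8 were higher and 8 were lower (all genes: 30.8 and 15.1%), and 12 had a rising slope (all genes: 26.2%), 4 without the 2 h pair and 6 without 8 h. Its median difference was -0.26 in the 2 h pair and 0.01 in the 9 h pair, while its members stood far apart. Over the 5 times, 5 to 8 members were higher and 7 or 8 lower when any 1 time was left out. At 2 h, leaving out 4, 6, 8 or 9 h gave 4 to 6 lower and 1 to 3 higher.

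The DNA motif ACCAGC, which Swi5 binds, occurred on either strand within 600 bases upstream of the start codon in 14 of the 18 genes (77.8%), against 16.4% of 5991 upstream regions. The windows that hold it are shown for members that were lower than WT and for PIR1, which was higher, because all share the letters. They are from the RefSeq R64 assembly (sacCer3) on the strand of the gene, with the motif or its reverse complement GCTGGT in capitals. They lie at chrV:409444-409521 (minus), chrVIII:385236-385265 (plus), chrVII:443425-443454 (minus), chrXII:710645-710714 (minus) and chrXI:143011-143040 (minus).
DSE1: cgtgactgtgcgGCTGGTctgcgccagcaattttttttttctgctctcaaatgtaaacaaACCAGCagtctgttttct
DSE2: aacttcaagtaaACCAGCaatatcgacttc
SCW11: aaaatcgtggaaACCAGCaactggtaacta
CTS1: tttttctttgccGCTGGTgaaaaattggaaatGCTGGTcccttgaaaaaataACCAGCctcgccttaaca
PIR1: aaatattagaacGCTGGTatactaattatt
DSE1 and CTS1 hold 2 and 3 matches in these windows, and the other genes 1. SIC1, which was higher, had no match in the searched region outside the 50 bases next to the start codon. A match describes the letters only, since binding was not measured.

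**Figure D2:**
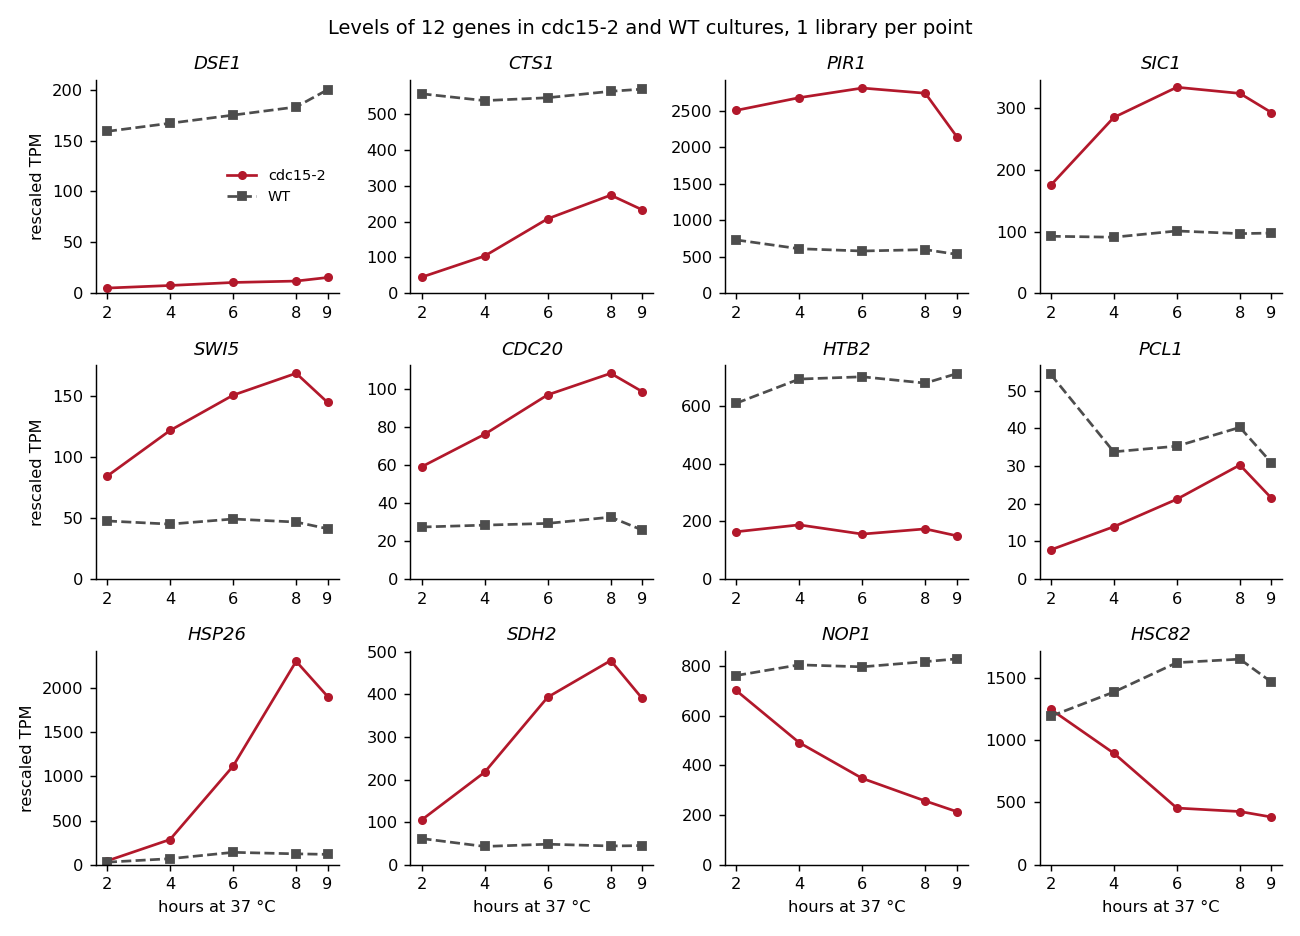
Rescaled TPM (vertical axes, each from 0) of 12 genes against hours at 37 °C, with cdc15-2 as red circles and WT as grey squares, 1 library per point. DSE1 and HTB2 were low in cdc15-2 from 2 h, PIR1 was high from 2 h, CTS1 and PCL1 began low and recovered, and HSP26, SDH2, NOP1 and HSC82 moved away from WT with time.

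The Clb2 cluster, genes transcribed in G2 and mitosis by Mcm1 with Fkh2 and Ndd1, was higher in cdc15-2 on average. Of its 21 genes, 19 were higher over the 5 times (all genes: 30.8%) and none was lower, and 17 to 19 were higher when any 1 time was left out. In 17 of them every cdc15-2 library was above every WT library (all genes: 20.9%). The median difference was 0.47, 1.05, 1.08, 1.28 and 1.3 at 2, 4, 6, 8 and 9 h, against 0.01, 0.16, 0.21, 0.21 and 0.17 for all genes. At 2 h 11 of 21 were higher (all genes: 3.88%), 0 to 5 without 4, 6, 8 or 9 h. The slope rose for 16 (all genes: 26.2%), against 5 rising and 2 falling without the 2 h pair and 10 rising without 8 h.

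SWI5 itself had 84.4, 122, 151, 169 and 145 TPM in cdc15-2, against 47.7, 45.1, 49.3, 46.8 and 41.3 TPM in WT. CDC20, the activator of the anaphase-promoting complex at metaphase, had 58.9, 76.0, 96.7, 108 and 98.4 TPM in cdc15-2, against 27.3, 28.3, 29.2, 32.5 and 25.7 TPM in WT. KIN3, a mitotic kinase related to NIMA, had 95.6, 130, 169, 167 and 164 TPM in cdc15-2, against 40.6, 40.3, 44.0, 42.4 and 35.5 TPM in WT. In all 3 genes the strains were apart at every time and the gap widened. Their differences at 2 h were 0.97 ± 0.13, 1.15 ± 0.10 and 1.32 ± 0.11 (SE), with adjusted p of 0.0215, 0.00871 and 0.00614. HST3, a sirtuin, IQG1, a contractile ring scaffold, and BUD4, a bud site protein, followed the same course and were 1.65, 1.36 and 1.18 higher over the 5 times.

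The mitotic cyclins took another course. CLB2 had 58.9, 77.9, 78.4, 74.1 and 54.6 TPM in cdc15-2, against 42.7, 37.2, 48.7, 47.8 and 44.6 TPM in WT, and CLB1 had 93.7, 169, 205, 161 and 136 TPM in cdc15-2, against 65.7, 73.6, 87.9, 97.5 and 86.2 TPM in WT. Both were higher over the 5 times, by 0.62 and 0.86, and neither had a called difference at 2 h or a called slope. MMR1, a mitochondrial inheritance factor of the list, differed by 0.02 over the 5 times and passed no test.

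The forkhead motif GTAAACAA occurred upstream of 9 of the 21 genes (42.9%), against 5.31% of all upstream regions searched. The windows of 3 members that were higher over the 5 times are printed to show where the letters lie, with the motif in capitals, at chrIV:751024-751055 (minus), chrVII:667960-667991 (plus) and chrX:598542-598573 (plus).
SWI5: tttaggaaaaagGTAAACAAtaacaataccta
DBF2: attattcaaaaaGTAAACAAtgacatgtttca
BUD4: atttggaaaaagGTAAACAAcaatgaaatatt
The 3 windows lie between positions -313 and -162 relative to the start codon. KIN3, CDC20, HST3 and CLB2 had no match in the searched region outside the 50 bases next to the start codon.

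Within the mitotic exit network and its neighbours, 7 of 18 genes were higher over the 5 times (all genes: 30.8%) and 2 were lower (all genes: 15.1%). With a time left out 6 to 9 were higher, and none was lower without 4, 6, 8 or 9 h. CDC15 itself, present as a mutant allele, had 19.1, 25.9, 30.1, 35.8 and 34.2 TPM in cdc15-2, against 18.0, 18.3, 17.3, 17.6 and 15.1 TPM in WT, and rose by 0.15 ± 0.03 per hour (adjusted p = 0.00631). The transcript level of a temperature-sensitive allele is no check of the label. DBF2, the kinase below Cdc15, had 99.0, 154, 188, 196 and 173 TPM in cdc15-2, against 58.6, 54.2, 54.5, 58.5 and 50.6 TPM in WT. Its partner MOB1, the GTPase gene TEM1 and the polo kinase gene CDC5 were 1.23, 0.81 and 0.79 higher over the 5 times. SPO12, a regulator of Cdc14 release, was 1.05 higher at 2 h and 1.08 higher over the 5 times, with no called slope.

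CDC14 differed by less than 0.01 over the 5 times and passed no test. NET1, which anchors Cdc14 in the nucleolus, and NUD1, the scaffold at the spindle pole, were lower over the 5 times by 0.29 and 0.40. With values rescaled without the ribosomal DNA open reading frames, none of the 18 listed genes was called lower. PDS1, the securin that holds separase inactive until anaphase, had 10.1, 21.7, 30.3, 38.0 and 41.2 TPM in cdc15-2, against 30.1, 28.0, 35.9, 36.9 and 34.3 TPM in WT. It was 1.48 lower in the 2 h pair and within 0.26 of WT in the 8 and 9 h pairs, with a fitted difference of -1.18 at 2 h (adjusted p = 0.0338) and a slope of 0.22 per hour (0.00891).

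Histone genes, which are transcribed in S phase, were low from the first time. At 2 h 8 of 10 were lower (all genes: 1.26%), 7 of 10 were lower over the 5 times (all genes: 15.1%) and none was higher in either. In 9 of 10 every cdc15-2 library was below every WT library (all genes: 9.62%). Over the 5 times 4 were lower without 4, 6, 8 or 9 h, and at 2 h 4, 1, 4, 5 and 6 were lower without 2, 4, 6, 8 and 9 h. HTB2, for histone H2B, had 164, 188, 156, 174 and 150 TPM in cdc15-2, against 610, 694, 702, 680 and 713 TPM in WT, and its fitted difference at 2 h was -1.87 ± 0.11 (adjusted p = 0.0025). HTA2, for H2A, had 124, 115, 98.1, 88.7 and 72.8 TPM in cdc15-2, against 351, 359, 388, 346 and 399 TPM in WT, and fell further by 0.12 per hour.

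The H3 and H4 genes differed among themselves. HHF1, for H4, had 335, 614, 844, 1064 and 1015 TPM in cdc15-2, against 1215, 1305, 1284, 1324 and 1364 TPM in WT, and so came back with a slope of 0.21 per hour (adjusted p = 0.00456). HHT1, the H3 gene beside it, also came back, with differences of -1.42 in the 2 h pair and -0.46 in the 9 h pair. HHF2, the second H4 gene, was lower by 0.53 over the 5 times with no called slope, and HHT2 had differences from -0.50 to -0.20 and passed no test. Each H2A, H2B, H3 and H4 gene has a near-identical copy, and reads shared by both copies were divided by an estimate.

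The G1/S genes, which the factors SBF and MBF transcribe at the start of the cycle, were lower at 2 h or rising in some members. Of 35 listed genes, 6 were lower at 2 h (all genes: 1.26%) and none was higher, with a median difference of -0.08 in the 2 h pair. The slope rose for 14 (all genes: 26.2%) and fell for 2 (all genes: 22.5%), with 6 rising without the 2 h pair and 9 without 8 h. PCL1, a G1 cyclin for the kinase Pho85, had 7.75, 13.9, 21.2, 30.3 and 21.5 TPM in cdc15-2, against 54.4, 33.8, 35.3, 40.3 and 30.9 TPM in WT. RNR1 (YER070W), the large subunit of ribonucleotide reductase, had 57.4, 63.6, 91.5, 127 and 103 TPM in cdc15-2, against 149, 118, 127, 146 and 124 TPM in WT. Both slopes passed the test, at 0.29 and 0.16 per hour. NRM1, the repressor of MBF genes, SVS1, a cell wall protein, and MCD1, the cohesin subunit, likewise were lower at 2 h with rising slopes. The 6 calls at 2 h became 0 without the 4 h pair and 3 or 4 without 6, 8 or 9 h.

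The G1 cyclins CLN1 and CLN2, which drive entry into a new cycle, crossed over in the single pairs. CLN2 had 91.3, 267, 411, 407 and 359 TPM in cdc15-2, against 192, 153, 154, 155 and 132 TPM in WT. It was 1.07 lower in the 2 h pair and 0.80 to 1.44 higher from 4 h on. CLN1 was 0.89 lower in the 2 h pair and 1.26 higher in the 9 h pair. The slopes of CLN2 and CLN1 were called, at 0.32 and 0.28 per hour. Neither gene was called at 2 h, where the fitted differences were -0.43 for CLN2 and -0.31 for CLN1. GIC2, an effector of Cdc42 in bud emergence, was 1.95 higher over the 5 times. CLN3 and SWI4, which are transcribed from early cell cycle boxes before G1, were higher by 1.05 and 0.87, as were 6 of the 9 genes of that list (all genes: 30.8%), 4 without 4, 6, 8 or 9 h, and none was lower.

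The MluI cell cycle box ACGCGT occurred upstream of 21 of the 35 G1/S genes (60.0%) and of 6.36% of all regions. It is printed, in capitals, for a gene with 2 copies that was low at 2 h and came back, at chrV:298567-298661 (plus), positions -383 to -289 relative to the start codon.
RNR1: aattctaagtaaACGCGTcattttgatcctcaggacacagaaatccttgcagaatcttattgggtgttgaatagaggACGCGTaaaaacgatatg
The box is its own reverse complement, so each copy is counted once.

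Among genes of the spindle rising slopes were more frequent than falling ones. Of 19 listed, 12 had a rising slope (all genes: 26.2%) and 2 a falling one (all genes: 22.5%), with 3 rising without the 2 h pair and 7 without 9 h. CIN8, a kinesin of the spindle, was 0.98 lower in the 2 h pair and 0.03 lower in the 9 h pair. TUB3, the minor alpha-tubulin gene, went the other way and had 96.7, 78.9, 75.1, 69.8 and 58.3 TPM in cdc15-2, against 164, 157, 166, 164 and 154 TPM in WT. Of 16 contractile ring and septum genes, 7 were higher over the 5 times (all genes: 30.8%). They included MYO1, the ring myosin, HOF1 and CYK3, which link the ring to the septum, and CHS2, the chitin synthase of the primary septum, at 1.17, 1.00, 1.06 and 0.92 higher.

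**Figure D3:**
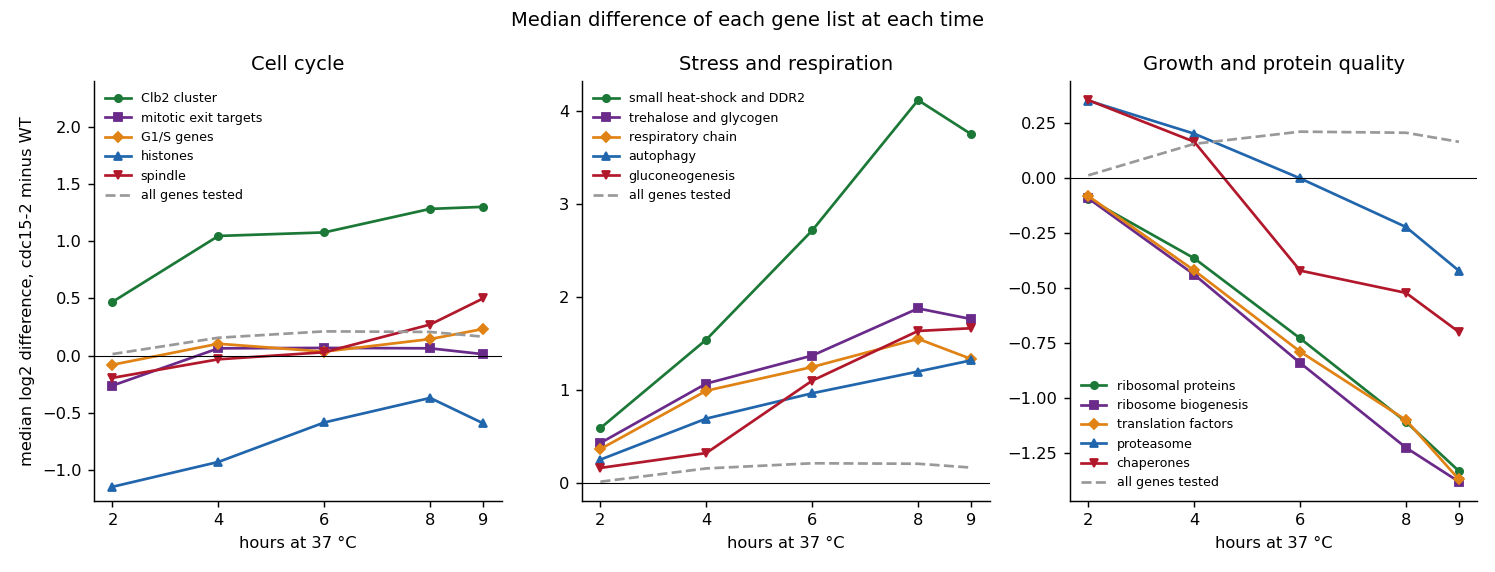
Median log2 difference, cdc15-2 minus WT (vertical axes, which differ between panels), of 15 gene lists against hours at 37 °C, with the median of all genes tested as a dashed line. The Clb2 cluster stood at 0.47 and histones at -1.15 at 2 h, while small heat-shock genes reached 4.12 at 8 h and ribosomal protein genes -1.33 at 9 h.

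Genes of the stress response drifted upwards. Among 16 small heat-shock, DDR2-type and hydrophilin genes, 15 were higher over the 5 times (all genes: 30.8%), 9 without 6, 8 or 9 h, and 14 had a rising slope (all genes: 26.2%), 8 without the 2 h pair. At 2 h 4 were higher (all genes: 3.88%), and none without 4, 6 or 8 h. The median difference was 0.59, 1.54, 2.72, 4.12 and 3.76 at 2, 4, 6, 8 and 9 h. HSP26 (YBR072W), a small heat-shock chaperone, had 43.4, 286, 1117, 2304 and 1905 TPM in cdc15-2, against 29.5, 69.0, 141, 124 and 118 TPM in WT. Its slope was 0.52 ± 0.05 per hour (adjusted p = 0.00138), and its difference of 0.54 in the 2 h pair was not called. HSP12 (YFL014W), a membrane-binding stress protein, had 531, 2586, 5872, 7121 and 5812 TPM in cdc15-2, against 235, 571, 641, 628 and 742 TPM in WT, and was called at 2 h as well (1.5, adjusted p = 0.0466).

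Several members were close to absent in WT. SPG4, a protein of stationary phase, had 1.03, 4.57, 37.5, 104 and 99.4 TPM in cdc15-2, against 1.53, 4.12, 1.57, 0.489 and 0 TPM in WT, with a slope of 1.11 per hour. SIP18, a hydrophilin of drying cells, had 3.96, 11.7, 44.4, 193 and 168 TPM in cdc15-2, against 7.88, 3.62, 6.43, 2.26 and 4.81 TPM in WT. HSP30, a plasma membrane protein, and GRE1, another hydrophilin, had differences of -0.08 and -0.19 in the 2 h pair and 4.11 and 4.87 in the 9 h pair. All 4 were below WT in the 2 h pair and above it in every later pair. YGP1, a secreted glycoprotein placed in the same list, was lower by 0.97 over the 5 times.

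The stress response element AGGGG, to which Msn2 and Msn4 bind, occurred upstream of 13 of these 16 genes (81.2%), against 39.7% of all regions, and at least 2 copies occurred in 62.5 and 10.8%. Windows are shown for HSP12 and HSP26, whose levels are given above, with AGGGG or its reverse complement CCCCT in capitals, at chrVI:106809-106895 (plus) and chrII:381539-381585 (plus).
HSP12: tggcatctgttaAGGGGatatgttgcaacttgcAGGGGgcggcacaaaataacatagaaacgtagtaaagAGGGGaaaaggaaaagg
HSP26: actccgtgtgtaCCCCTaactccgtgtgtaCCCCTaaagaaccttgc
HSP12 holds 3 copies in its window and HSP26 holds 2. SPG4 had no copy in the searched region outside the 50 bases next to the start codon.

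Reserve carbohydrate genes changed as a block. All 19 genes of trehalose and glycogen metabolism were higher over the 5 times (all genes: 30.8%), 14 to 19 when 1 time was left out. At 2 h 4 were higher (all genes: 3.88%), and none without 4, 6 or 8 h, and 13 had a rising slope (all genes: 26.2%), 8 without 2 h. TSL1, a regulatory subunit of trehalose synthase, had 46.4, 123, 207, 254 and 247 TPM in cdc15-2, against 25.5, 34.4, 38.5, 33.3 and 32.2 TPM in WT. TPS2, the trehalose phosphatase, was 0.85 higher at 2 h and 1.08 over the 5 times without a called slope. GPH1, the glycogen phosphorylase, was 0.02 lower in the 2 h pair and 1.77 higher in the 9 h pair. The AGGGG element occurred upstream of 78.9% of this list.

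Enzymes against oxidants followed. Of 20 genes, 13 were higher over the 5 times (7 to 16 with a time left out) and none was lower (all genes: 30.8 and 15.1%), and 5 were higher at 2 h (all genes: 3.88%), against 0 without 4 or 6 h, 2 without 8 h and 3 without 9 h. CTT1, the cytosolic catalase, had 8.98, 20.7, 51.2, 84.4 and 69.4 TPM in cdc15-2, against 9.41, 9.81, 7.05, 6.88 and 7.11 TPM in WT. SRX1, the sulfiredoxin, had 5.08, 27.8, 98.3, 143 and 114 TPM in cdc15-2, against 5.05, 4.22, 2.34, 3.52 and 6.53 TPM in WT. Neither differed in the 2 h pair by more than 0.1, and their slopes were 0.50 and 0.61 per hour. In the autophagy list 17 of 22 genes were higher over the 5 times (all genes: 30.8%), 8 to 19 with a time left out, and 17 had a rising slope (all genes: 26.2%), 5 without 2 h, 11 without 8 h and 10 without 9 h. They included ATG8, the ubiquitin-like protein of the autophagosome, which was 0.59 higher in the 2 h pair and 3.92 higher in the 8 h pair.

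Nuclear genes for respiration were higher over the 5 times. This held for all 35 genes of the respiratory chain and ATP synthase (all genes: 30.8%), 21 to 35 with a time left out, and in 33 every cdc15-2 library was above every WT library (all genes: 20.9%). The slope rose for 26 of them (all genes: 26.2%), 6 without the 2 h pair and 10 without 8 h. The tricarboxylic acid cycle had 14 of 15 higher over the 5 times (all genes: 30.8%), 9 to 15 with a time left out. SDH2, a subunit of succinate dehydrogenase, had 105, 217, 393, 479 and 390 TPM in cdc15-2, against 61.6, 43.0, 48.3, 44.1 and 45 TPM in WT. CYC7, an isoform of cytochrome c, was 1.89 ± 0.23 higher at 2 h (adjusted p = 0.0167) and rose on by 0.22 per hour. The respiratory list took 0.848, 1.26, 1.74, 1.80 and 1.6% of the rescaled total in cdc15-2, against 0.609 to 0.666% in WT. Among genes of gluconeogenesis and acetate use 11 of 14 rose (all genes: 26.2%), 10 or 11 with any time left out. PCK1, its committed enzyme, was 0.20 higher in the 4 h pair and 2.91 higher in the 9 h pair, with a slope of 0.44 ± 0.05 (SE) per hour.

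Genes for ribosomes and translation fell steadily. None of the 138 ribosomal protein genes was called at 2 h (all genes: 5.14%), and 133 had a falling slope (all genes: 22.5%), 126 to 132 when any 1 time was left out. Their median difference was -0.09, -0.36, -0.73, -1.11 and -1.33 at 2, 4, 6, 8 and 9 h. Together they took 27.3, 22.2, 17.5, 13.5 and 11.9% of the rescaled total in cdc15-2, against 27.9 to 29.0% in WT. RPL9A had 1429, 991, 532, 324 and 291 TPM in cdc15-2, against 1647, 1678, 1708, 1599 and 1656 TPM in WT. RPS14B was the exception with a rising slope, of 0.12 per hour. Many of these genes are pairs of near-identical copies, so single values are less certain than the median.

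Ribosome biogenesis genes followed the same line, with 72 of 75 falling (all genes: 22.5%), 70 or 71 with a time left out. At 2 h 1 was higher (all genes: 3.88%), RRN3, an initiation factor of RNA polymerase I (0.56, adjusted p = 0.0466). NOP1 (YDL014W), the methyltransferase of box C/D snoRNPs, had 702, 492, 348, 257 and 214 TPM in cdc15-2, against 762, 805, 797, 818 and 829 TPM in WT. NSR1 (YGR159C), the yeast nucleolin, had 795, 536, 376, 298 and 225 TPM in cdc15-2, against 856, 843, 842, 927 and 891 TPM in WT. Their slopes were -0.26 ± 0.02 (SE) per hour for both genes, each with adjusted p = 0.00135. Of 24 translation factors 22 fell (all genes: 22.5%), among them YEF3, the fungal elongation factor 3, at -0.21 per hour.

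The averages over the 5 times were less stable than these slopes. For ribosomal proteins 97 were lower on average, but 123 without 2 h, 48 without 4 h, 1 without 6 h, 1 without 8 h and 7 without 9 h. For ribosome biogenesis 65 were lower, but 2 without 6 h, 4 without 8 h and 8 without 9 h. With values rescaled without the ribosomal DNA open reading frames the median slope was -0.13 per hour for ribosomal proteins and -0.14 for ribosome biogenesis, against -0.18 and -0.19 with them, while that of all genes was 0.06 against 0.02.

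The PAC motif GATGAG occurred upstream of 72 of the 75 ribosome biogenesis genes (96.0%), against 32.1% of all regions, and the RRPE motif AAAATTTT upstream of 84.0%, against 13.6%. The list was made by function. PAC is shown, in capitals as GATGAG or its reverse complement CTCATC, for genes that fell steadily, at chrIV:427148-427177 (plus) and chrVII:807826-807855 (minus).
NOP1: caaattggaaagCTCATCtctcttgaatgt
NSR1: ttgcaagggcagCTCATCgcaagaacgaaa
Each window holds 1 copy.

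Most proteasome genes had a falling slope. Of 33 proteasome genes, 8 were higher at 2 h (all genes: 3.88%) and 28 had a falling slope (all genes: 22.5%), 15 to 27 with a time left out. Their median difference was 0.35 in the 2 h pair and -0.42 in the 9 h pair. All 8 calls at 2 h were lost without 4, 6, 8 or 9 h. RPN11, the deubiquitinase of the lid, was 0.40 higher at 2 h and 0.85 lower at 9 h. RPN4, the transcription factor of proteasome genes, went against them and had 83.3, 141, 173, 214 and 224 TPM in cdc15-2, against 65.0, 64.6, 58.3, 59.7 and 57.0 TPM in WT.

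Chaperones were divided. Of 22 genes, 6 were higher at 2 h (all genes: 3.88%), 0 or 1 without 4, 6, 8 or 9 h. With time 15 fell (all genes: 22.5%), 12 to 16 with a time left out, and 3 rose (all genes: 26.2%). HSC82, the constitutive Hsp90, had 1247, 895, 455, 427 and 383 TPM in cdc15-2, against 1191, 1385, 1621, 1649 and 1466 TPM in WT. SSA2, a constitutive Hsp70, had 1937, 1161, 474, 449 and 336 TPM in cdc15-2, against 1886, 2177, 2398, 2482 and 2198 TPM in WT. HSP104, the disaggregase, stayed 0.71 to 1.2 higher at every time. SSE2, an exchange factor for Hsp70, rose by 0.26 per hour.

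Many glycolytic and fermentative enzymes fell with time. CDC19, pyruvate kinase, had 5137, 4322, 2925, 2316 and 1604 TPM in cdc15-2, against 5522, 5704, 5810, 5819 and 5666 TPM in WT, and ADH1 and ENO2 fell by 0.27 and 0.29 per hour. In all 15 of 25 fell (all genes: 22.5%), 11 to 16 with a time left out. HXK1, a hexokinase of poor glucose, had 319, 344, 274, 207 and 196 TPM in cdc15-2, against 98.9, 210, 242, 180 and 228 TPM in WT. Its difference was 1.68 in the 2 h pair and 0.18, 0.20 and -0.21 in the 6, 8 and 9 h pairs. TDH1, a glyceraldehyde-3-phosphate dehydrogenase of non-dividing cells, had 65.7, 438, 1634, 1822 and 1257 TPM in cdc15-2, against 61.1, 110, 133, 116 and 149 TPM in WT.

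In the Ras and protein kinase A pathway, 9 of 15 genes were higher over the 5 times (all genes: 30.8%), 3 to 9 with a time left out, and 1, RAS1, was lower (all genes: 15.1%), with none lower without 4, 6, 8 or 9 h. TPK2, a catalytic subunit, was 1.35 higher, and BCY1, the inhibitory subunit, was 0.66 higher, while TPK3, also a catalytic subunit, passed no test. PDE1, a cAMP phosphodiesterase, had 109, 237, 479, 613 and 592 TPM in cdc15-2, against 84.6, 87.6, 72.1, 73.8 and 69.7 TPM in WT. Among 15 stress regulators none passed at 2 h, and 9 were higher over the 5 times (all genes: 30.8%), 5 without 6 h and 6 without 8 h. MSN4 was 1.03 and XBP1, a repressor of cyclin genes, 2.01 higher, and MSN2 passed no test. Cell wall integrity genes were higher over the 5 times in 12 of 23 cases (all genes: 30.8%), but in 4 without 6 or 8 h, with PIR3 0.21 lower in the 2 h pair and 4.32 higher in the 8 h pair. GPD1 and GPP2, the enzymes of glycerol synthesis, were 1.45 and 1.67 higher at 2 h with no called slope.

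Among the 10 genes of largest fitted value in each direction, 9 of the 10 steepest falling and 5 of the 10 steepest rising had no gene name. Many of those are short or overlap other genes. HYP2, the translation factor eIF5A, showed the caution they need. It was listed at 469, 81.8, 0, 13.4 and 0 TPM in cdc15-2, against 664, 476, 762, 654 and 612 TPM in WT. The overlapping open reading frame YEL034C-A on the other strand was listed at 3703, 2767, 2463, 2174 and 1790 TPM in cdc15-2, against 3351, 3491, 3422, 3618 and 3669 TPM in WT. Whether reads of the overlap were told apart by strand was not tested. Named genes of largest positive average included GPG1, a G protein subunit, SOL4 and GND2, enzymes of the pentose phosphate pathway, and DDR2, a stress protein, at 3.30, 2.92, 3.17 and 3.11.

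The Bcy1 depletion experiment held other cultures labelled with the same cdc15-2 and WT strains. From it 5 pairs were used, at 2, 4 and 6 h in 1 series of libraries and at 4 and 6 h in another. The medium held acetic acid, 500 µM auxin was given after the first 2 h, and the labels call the RNA total RNA. The methods of the study name total RNA only for other experiments and enriched mRNA for the rest, so the kind of RNA is unclear. These libraries share no sample with the arrest experiment. For the 6 MATa genes the cdc15-2 libraries had 951 to 1483 TPM in sum, and the libraries labelled WT had 26 to 32.5 TPM. For the 4 MATalpha genes the cdc15-2 libraries had 20 to 64.9 TPM, and the libraries labelled WT had 1638 to 3250 TPM, which goes against their MATa label. Every direction drawn from those libraries carries this doubt. Of 6030 genes tested there, 857 (14.2%) were higher in cdc15-2 and 203 (3.37%) lower than in the libraries labelled WT, against 559 and 545 with each library centred. The number of calls was 521 without the 4 h pair of the first series, 675 without its 6 h pair and 686 without the 6 h pair of the second.

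Genes called at 2 h in the arrest mostly recurred, with the doubt about the libraries labelled WT that is given above. Of the 247 higher genes, 244 were tested there, and 160 were called higher (65.6%, against 14.2% of all genes) and none lower. Of the 80 lower genes, 78 were tested, and 43 were called lower (55.1%, against 3.37%) and none higher. In the single 2 h pair, before auxin was added, 208 of the 244 (85.2%) were higher, against 66.0% of all genes, and 68 of the 78 (87.2%) were lower, against 33.9%. DSE1, DSE2 and SCW11 differed by -4.62, -6.10 and -3.59 there, HTB2 by -2.07 and PIR1 by 1.79.

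The gene lists recurred in part, with the same doubt about the libraries labelled WT. In the Clb2 cluster 17 of 21 genes were higher (all genes: 14.2%), among genes of mitotic exit 7 of 18 were higher (all genes: 14.2%) and 8 lower (all genes: 3.37%), and 8 of 10 histone genes were lower (all genes: 3.37%). Small heat-shock and trehalose genes were higher in 11 of 16 and 14 of 19 cases (all genes: 14.2%). Ribosome genes differed less on average, over 2 to 6 h here and over 2 to 9 h in the arrest. In the arrest pairs of 2, 4 and 6 h the median was -0.09, -0.36 and -0.73 for ribosomal proteins. For ribosome biogenesis it was -0.09, -0.44 and -0.84. Of 138 ribosomal protein genes 15 were lower (all genes: 3.37%) and 2 higher (all genes: 14.2%), with a median of -0.29, and of 75 ribosome biogenesis genes 1 was higher and none lower, with a median of 0.16, against 0.19 for all genes. The slopes there, over 2 to 6 h, had medians of -0.12 and -0.23 per hour for these lists, against 0.04 for all genes. Of the genes that rose in the arrest 93.2% had a positive slope there (all genes: 59.8%), and of those that fell 86.1% had a negative one (40.2%), although 48 slopes in all passed as rising and 1 as falling (0.796 and 0.0166% of genes).

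**Figure D4:**
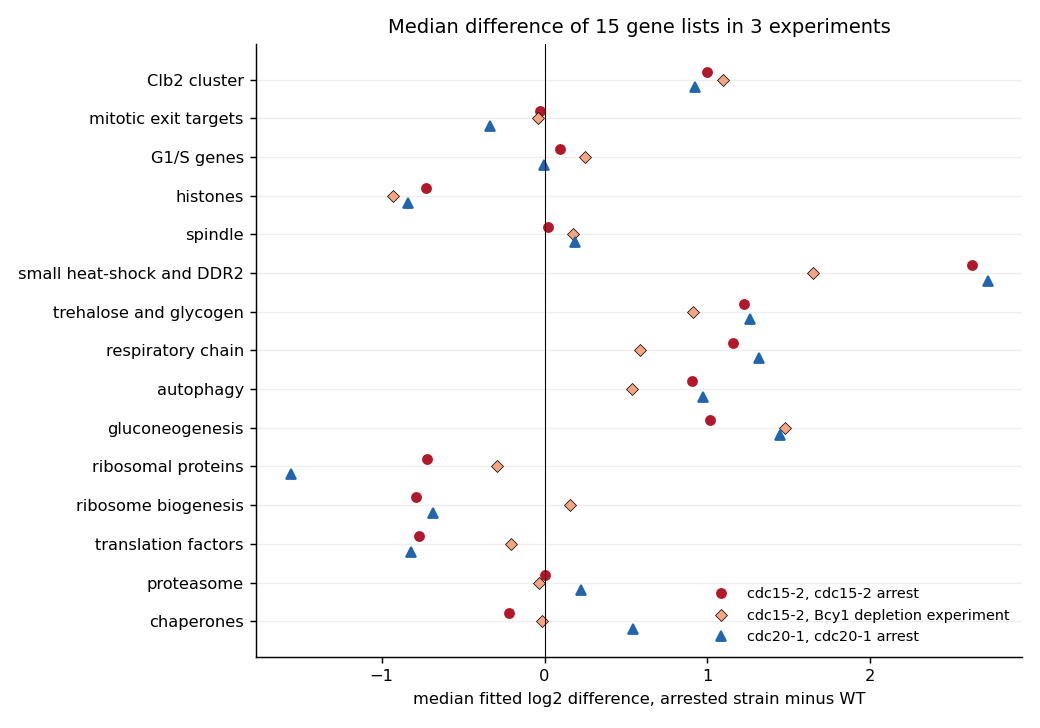
Median fitted log2 difference of 15 gene lists (rows), arrested strain minus WT, for cdc15-2 in the cdc15-2 arrest (red circles), cdc15-2 in the Bcy1 depletion experiment (light diamonds) and cdc20-1 in the cdc20-1 arrest (blue triangles). The Clb2 cluster stood at 1.00, 1.10 and 0.93, and ribosomal proteins at -0.72, -0.29 and -1.56.

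The cdc20-1 arrest, a metaphase block with its own WT libraries, was the nearest arrest in the series. Over the 4 shared times the cdc15-2 difference from WT exceeded the cdc20-1 difference from WT in 132 of 6396 genes (2.06%) and fell short of it in 591 (9.24%). The cdc20-1 strain is MATalpha by its label, so mating-type genes differ by genotype. With each library centred the split was 223 higher and 431 lower, and the number of calls was 225 without the 4 h pair and 231 without 6 h. DBF2, of the mitotic exit network, passed this test, with a difference between the arrests of -2.07 (adjusted p = 0.00173), since it was 1.44 higher than WT in cdc15-2 and 3.51 higher in cdc20-1. TOS6 and SCW11 were lower in cdc15-2 relative to cdc20-1 by -1.96 and -1.24. DSE1, DSE2, DSE4 and CTS1 did not pass this test. Their differences from WT in cdc20-1 were -3.43, -3.61, -2.70 and -1.85, so their low level was shared with the metaphase block. HTB2 and HTA2 were less depressed in cdc15-2, with contrasts of 1.06 and 1.43, and NIS1 was higher, at 1.28.

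Among lists, chaperones held 6 of 22 genes that were lower in cdc15-2 relative to cdc20-1 (all genes: 9.24%) and none higher, and HSP104 and HSP82 differed by -1.28 and -1.82. Of 16 small heat-shock genes 4 were lower (all genes: 9.24%), HSP26 by -2.75. Ribosomal protein genes were higher in 22 of 138 cases (all genes: 2.06%) and lower in 1, with a median contrast of 0.93 and median differences from WT of -0.72 in cdc15-2 over its 5 times and -1.56 in cdc20-1 over the 4 shared times. The Clb2 cluster had a median contrast of 0.07 and 1 of its 21 genes passed, DBF2. Between the WT libraries of the 2 experiments the same kind of fit called 0 of 6312 genes, with 834 at an unadjusted limma p under 0.05.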

How the data were processed

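Polyadenylated RNA of the arrest cultures was sequenced by the authors. STAR 2.5.3a and RSEM 1.3.0 and the sacCer3 build stand in the submitters' processing notes, and the deposited values are log2 of TPM plus 1 in a table of 7130 rows and 159 libraries. TPM keeps no depth, so no counting interval could be given. The values were returned to TPM and rescaled to a total of 1000000 over 6685 nuclear open reading frames, and a pseudocount of 1 was added before log2. Genes with a mean log2 value of at least 1 were kept. The samples were grouped by the strain, experiment and time of their labels.

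Differences were tested with limma 3.58.1 (R 4.3.3) with a variance trend and Benjamini-Hochberg adjustment over all genes kept, at 0.05. The first fit had time as a block and strain (residual degrees of freedom 4), and the second added strain by hours from 2 h (3). The script was checked on simulated data with independent noise in every library, so the check did not cover times that share a culture. Times pair the samples by design. Deviations of same-time libraries had correlations of -0.156 to 0.014, so the pairing rests on the design alone. Alternatives changed the scaling, pseudocount (0.1), filter (none or 3), block, WT libraries, variance model, time scale and times used. Tables were handled with Python 3.11.15 and pandas 2.3.3. Motifs were searched on both strands of 600 bases upstream of 5991 start codons in the RefSeq R64 assembly.

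Genes and the 38 lists were chosen with earlier results of these data known. The text names list members with large differences or none, and genes among the 10 of largest fitted value in each direction for each term. AXL2, SCW4 and YPR158C-D were chosen after their values were seen. Some members of the lists are not reported here.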

Additional observations from a re-analysis of the deposited data

Results flagged for a closer look

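Differences from WT were compared between the cdc15-2 and cdc20-1 arrests over the 4 shared times, and 723 genes differed between them by the limma contrast. Values are the cdc15-2 difference minus the cdc20-1 difference on the log2 scale, and each gene here passed the test of that contrast.

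Among cell cycle genes, DBF2 had -2.07 (1.44 in cdc15-2 and 3.51 in cdc20-1) and the G1/S gene SVS1 had -2.57 (-0.86 and 1.71). SCW11, TOS6 and SCW4, of the cell wall, had -1.24, -1.96 and -1.62, and TUB3 had -0.97. NIS1 and CYK3, targets of Swi5, had 1.28 and 0.96, and CLN3 and SWI4 had 0.86 and 0.75. The histone genes HTB2, HTA2 and HHF2 had 1.06, 1.43 and 0.74. Among stress genes, HSP12, HSP26, YGP1, HSP82 and HSP104 had -1.55, -2.75, -1.87, -1.82 and -1.28, and the cdc20-1 difference from WT was the higher in each of these 5. YGP1 was 0.95 lower than WT in cdc15-2 and 0.92 higher than WT in cdc20-1. The explanation of these differences was not tested.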

How the results depend on the processing

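Without time as a block 4489 genes passed over the 5 times, 462 at 2 h and 3211 for slope, against 2915, 327 and 3097 with the block. At 2 h the count was 568 on deposited values, 29 without a filter (12 higher and 17 lower), 75 with robust variances and no trend (41 and 34), 140 on log2 hours (86 and 54) and 521 without the ribosomal DNA open reading frames, which moved the median of all genes over the 5 times to 0.27. Between the WT series 1 gene passed with a filter at 3. With 1 time or pair left out, counts were 736 to 3676 over the 5 times, 15 to 539 at 2 h, 2071 to 2895 for slope, 521 to 1112 in the Bcy1 depletion experiment, 225 to 769 between arrests, and 0 to 1 between the WT series. Slopes split 1488 rising and 1877 falling after centring, and the contrast between arrests split 224 higher and 434 lower without the ribosomal DNA open reading frames. Of calls on named genes, 10 of 53 at 2 h, 56 of 93 over the 5 times and 45 of 81 for slope held under every alternative, and none reversed. With 3 or 4 residual degrees of freedom and unknown depth, small differences were not detectable.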
